A study of Mus musculus with 9 samples.

Results

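Mesenchymal glioma genes are a list of 46 genes, written by name, that mark the mesenchymal state of glioma, and all 46 were found among the 20690 genes of the per-gene table. Each was followed over 9 Affymetrix Mouse Gene 1.0 ST arrays, by group and by single line. The arrays form 3 groups of 3, all from cells cut out of the subventricular zone (SVZ) of electroporated mouse brains, grown in serum-free medium with EGF and FGF and sorted by fluorescence, with a tight gate for strong GFP in the shared protocol. The series title places the study in Ras pathway gliomas and their Ets transcription factors, and the comparisons ask how each set of glioma lines differed from neural stem and progenitor cells and from the other. Hras lines 1, 2 and 3 are glioma cells of CD1 mice given EGFP-Hras G12V. Erbb2 lines 1, 2 and 3 are glioma cells of CD1 mice given EGFP-P2A-Erbb2 V664E. NSC cultures 1, 2 and 3 are neural stem and progenitor cells given reporters without an oncogene, namely a membrane EGFP in NSC 1, Histone 3.3-EGFP in NSC 2 and no EGFP in NSC 3. All 9 also received TagBFPnls-V5 and pBase. NSC 1 and 2 came from CD1 mice, and NSC 3 from C57/Bl6 Dnm2 floxed mice, so strain and culture cannot be told apart there. For NSC 3 the description names a BFP sort while the source name names EGFP. The array titled Hras line 3 carries the number 4 in its description, and the title was followed. The labels give no ages. They also do not say that lines of 1 group were made from different mice, so a p-value here reflects the spread between cultures, which may be technical in part.

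Gliomas can move along an axis between a proneural state, with genes of neural and oligodendrocyte progenitors, and a mesenchymal state, with genes of matrix, adhesion, wound repair and inflammation. In human glioblastoma the surface receptor CD44 and the secreted chitinase-like protein CHI3L1 are its best known markers, and STAT3, C/EBP factors, RUNX1, BHLHE40, TAZ and the NF-kB factors have been placed among its regulators. Several matrix ligands of the list bind integrins and CD44, while its S100 proteins, annexins and galectins bind calcium, membranes or sugars. The members are given below by role: secreted and matrix proteins (12), surface receptors (7), galectins, annexins and S100 proteins (9), cytoskeleton, membrane and vesicle proteins (9), transcription regulators (7) and enzymes (2).

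Of 12 markers of neural stem cells and radial glia, 10 to 12 lay over 5.73, the 95th percentile of the receptor rows described below, on each array. Sox2 lay between 10.52 and 11.55 and Fabp7 between 12.60 and 13.84 on all 9 arrays (log2 level, the scale of the authors' deposited gene table and of every level below). Not all of them were at like levels in glioma lines and NSC. Egfr, the receptor of EGF, measured 5.59, 8.14 and 7.53 in the Hras lines, 5.29, 6.33 and 7.16 in the Erbb2 lines and 9.6, 10.71 and 11 in NSC and fell by 3.76 ± 0.61 (SE; limma adjusted p = 0.0474) for the glioma mean against NSC. Of the 12 changes of Erbb2 lines against NSC, 0 were positive, where 36.7% of all genes were. Neither transgene's own gene was called in any comparison, and the probes may not read the transgenes. Hras (listed as Hras1) measured 9.52, 9.29 and 9.53 in the Hras lines, 8.82, 9.24 and 8.93 in the Erbb2 lines and 9.81, 8.96 and 9.05 in NSC. Erbb2 measured 7.23, 8.37 and 8.19 in the Hras lines, 8.24, 7 and 9.18 in the Erbb2 lines and 7.23, 7.74 and 7.24 in NSC. The 1319 olfactory and vomeronasal receptor rows, which these cells are not known to use, had a median of 4.32 and a 95th percentile of 5.73. Of the members, 14 lay under that percentile on at least 1 array and none on all 9. Over all genes the median level was 7.06, 7.19 and 6.98 in the Hras lines, 6.68, 6.56 and 6.73 in the Erbb2 lines and 6.81, 6.56 and 6.69 in NSC, so the Hras arrays lay slightly higher on the deposited scale.

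No member was called changed between groups, at an adjusted p under 0.05 over all genes, in any of the 4 comparisons. What the list showed was a difference between single lines. Hras line 3 had the highest level of the 9 arrays for 26 of the 46 members, where it was the highest for 8.19% of all genes tested. Hras line 2 was the highest for 11 members (28% of all genes), Erbb2 line 3 for 4 (7.26%), NSC 3 for 3 (6.37%), and Hras line 1 and Erbb2 line 1 for 1 each (10.4% and 6.51%). Erbb2 line 2, NSC 1 and NSC 2 were the highest for 0 members (2.62%, 26.2% and 4.36%). In Hras line 3, 19 members lay at least 2 log2 units above the NSC mean, as 2.58% of all genes did. The other Hras lines had 2 such members in line 1 and 4 in line 2 (1.89% and 1.16% of all genes), and Erbb2 lines 1, 2 and 3 had 3, 1 and 4 (2.04%, 1.04% and 1.62%).

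The lines of a group did not lie together. The median difference of the members from the NSC mean was -0.02 in Hras line 1, 0.90 in line 2 and 1.18 in line 3, and -0.19, -0.34 and 0.45 in Erbb2 lines 1, 2 and 3. All genes gave 0.06, 0.33 and 0.09 in the Hras lines and -0.13, -0.16 and -0.15 in the Erbb2 lines. Hras line 1 lay above all 3 NSC cultures for 6 members (27.2% of all genes), line 2 for 34 (47.6%) and line 3 for 36 (24.4%). Of the Erbb2 lines, line 1 did so for 7 members (19.9%), line 2 for 4 (13%) and line 3 for 20 (20.2%). Hras line 1 was the lowest Hras line for 40 members (47.2% of all genes) and Hras line 3 the highest for 31 (22.8%). Erbb2 line 3 was the highest Erbb2 line for 35 (34.8%), and Erbb2 line 2 the lowest for 29 (38.3%). In NSC no culture took such a share, with 17, 12 and 17 members highest in cultures 1, 2 and 3 (59.7%, 17% and 23.3% of all genes).

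**Figure D1:**
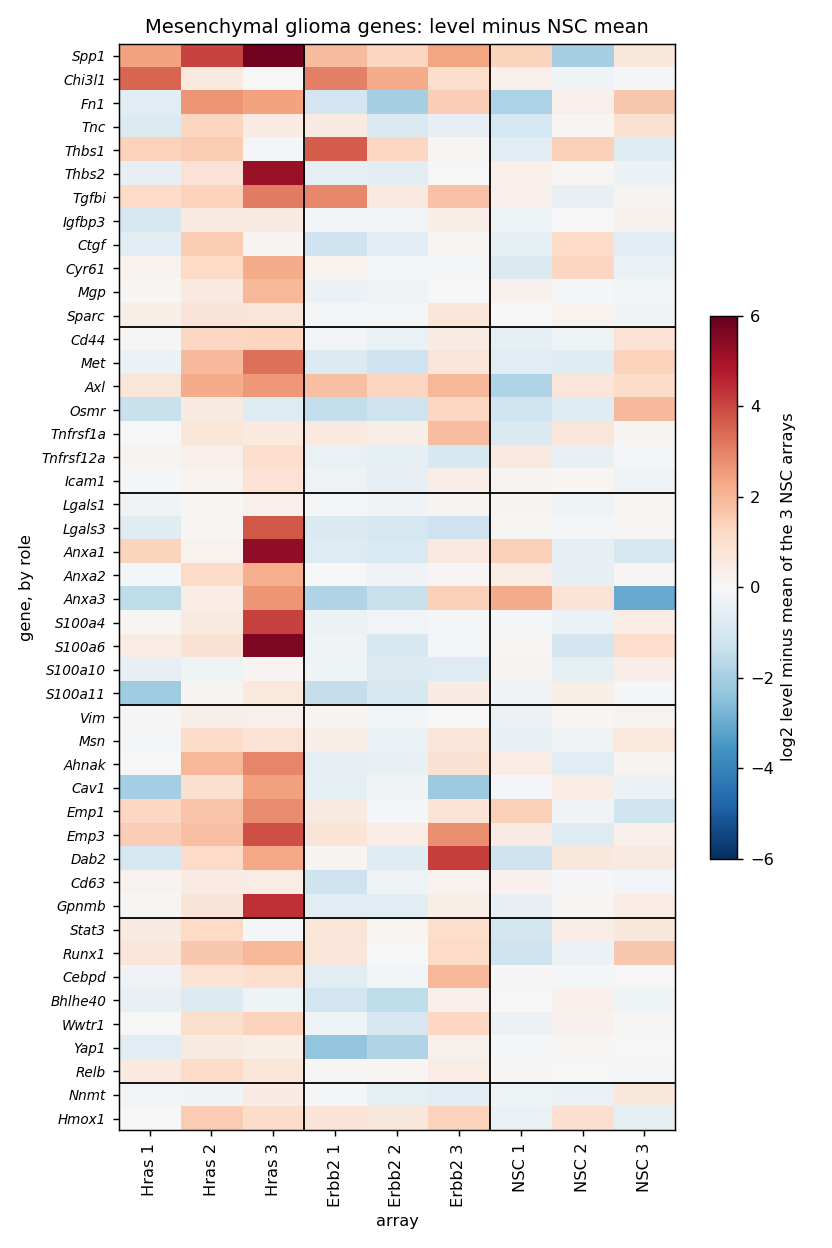
Level of each of the 46 members (rows, by role, divided by horizontal lines) on each of the 9 arrays (columns) as log2 units above (red) or below (blue) the mean of the 3 NSC arrays. The column of Hras line 3 holds 19 members at 2 or more above that mean, against 2 in Hras line 1 and 4 in Hras line 2.

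The spread within a group was wide for these genes. The median standard deviation over 3 arrays was 0.97 for the members in the Hras lines, where it was 0.31 over all genes. It was 0.58 in the Erbb2 lines (all genes 0.25) and 0.55 in NSC (all genes 0.38). The members lay at higher levels, with array medians from 7.69 (NSC 1) to 10.45 (Hras line 3). All genes had array medians from 6.56 (NSC 2) to 7.19 (Hras line 2). The spread of other genes at like levels was not compared. The place of Hras line 3 did not rest on the deposited scale. After quantile normalization it was the highest array for 25 members (8.31% of all genes), and after centring each array on its median for 22 (5.97%). Hras line 2 depended on the scale: it lay above all NSC cultures for 28 members after quantile normalization (24.4% of all genes) and for 12 after centring (14.6%). It was the highest array for 12 members after quantile normalization (9.31%) but for 2 after centring (4.39%). Erbb2 line 3 was the highest for 3 members after quantile normalization (9.74%) and for 10 after centring (8.97%). In bulk RNA from a culture, fewer cells of a type and less RNA per cell cannot be told apart.

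**Figure D2:**
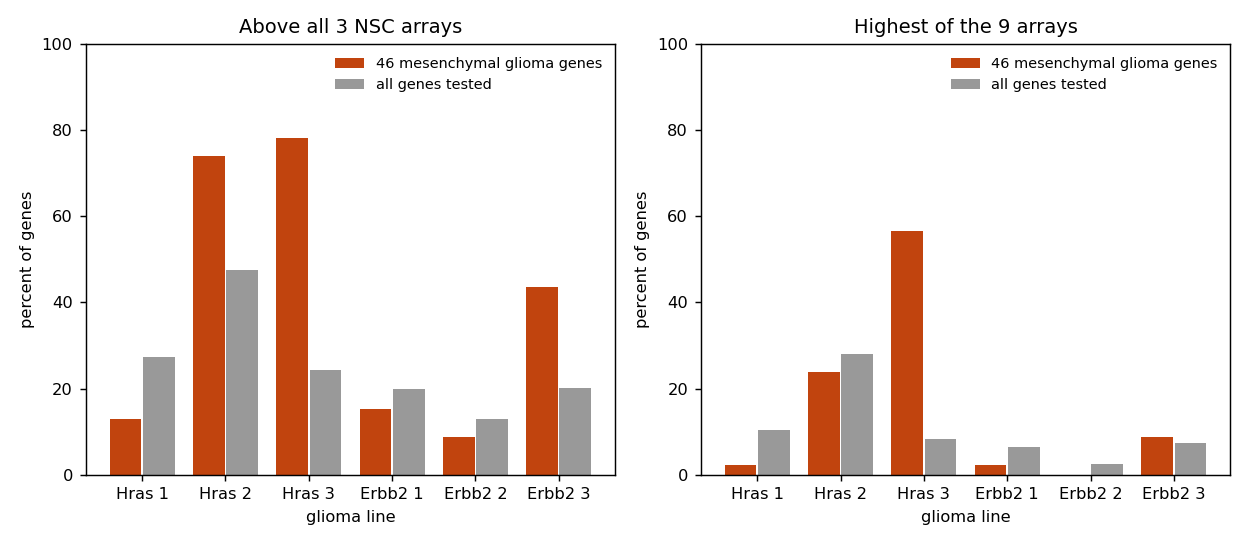
Percent of the 46 members (orange) and of all genes tested (grey) that lay above all 3 NSC arrays (left) and that were highest of the 9 arrays (right), for each glioma line. In Hras line 3 the orange bars stand for 36 and 26 members, while the grey bars are 24.4% and 8.19%.

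A set of 6 members was far higher in Hras line 3 than anywhere else, by at least 2 log2 units over each of the other 8 arrays. All genes tested held 81 such genes (0.391%). The 6 members are S100a6, Thbs2, Anxa1, Lgals3, Gpnmb and S100a4, picked here after their values were seen. Their promoters are shown with that of Spp1, the member with the smallest p in Hras lines against NSC, since all 7 were high in the same line. Each sequence is the 250 bases before the gene's annotated start (RefSeq, GRCm38.p6), 5′ to 3′ along the gene's strand, with matches to the motifs below in capitals. The windows are chr3:90603520-90603769 (plus strand) for S100a4, chr3:90612644-90612893 (plus) for S100a6, chr14:47373610-47373859 (plus) for Lgals3, chr19:20390672-20390921 (minus) for Anxa1, chr17:14694263-14694512 (minus) for Thbs2, chr6:49036268-49036517 (plus) for Gpnmb and chr5:104434861-104435110 (plus) for Spp1.
S100a4: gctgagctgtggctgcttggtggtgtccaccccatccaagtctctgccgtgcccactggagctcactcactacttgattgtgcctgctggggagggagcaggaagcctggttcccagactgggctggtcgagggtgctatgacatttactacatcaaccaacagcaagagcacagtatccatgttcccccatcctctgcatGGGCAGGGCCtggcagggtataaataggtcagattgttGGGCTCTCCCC
S100a6: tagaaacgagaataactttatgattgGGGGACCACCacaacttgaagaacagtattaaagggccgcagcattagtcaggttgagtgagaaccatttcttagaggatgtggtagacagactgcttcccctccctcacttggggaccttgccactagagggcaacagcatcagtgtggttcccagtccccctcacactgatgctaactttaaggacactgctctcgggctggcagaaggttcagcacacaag
Lgals3: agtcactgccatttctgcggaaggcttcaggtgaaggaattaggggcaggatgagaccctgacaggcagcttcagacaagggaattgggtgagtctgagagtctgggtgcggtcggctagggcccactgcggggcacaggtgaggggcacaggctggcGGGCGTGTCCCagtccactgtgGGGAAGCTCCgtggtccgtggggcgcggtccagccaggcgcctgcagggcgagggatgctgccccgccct
Anxa1: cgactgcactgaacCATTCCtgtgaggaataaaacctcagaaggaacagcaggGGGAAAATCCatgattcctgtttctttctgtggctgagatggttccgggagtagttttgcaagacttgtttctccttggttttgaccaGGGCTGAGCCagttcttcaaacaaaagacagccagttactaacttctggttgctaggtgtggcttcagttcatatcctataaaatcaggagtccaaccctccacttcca
Thbs2: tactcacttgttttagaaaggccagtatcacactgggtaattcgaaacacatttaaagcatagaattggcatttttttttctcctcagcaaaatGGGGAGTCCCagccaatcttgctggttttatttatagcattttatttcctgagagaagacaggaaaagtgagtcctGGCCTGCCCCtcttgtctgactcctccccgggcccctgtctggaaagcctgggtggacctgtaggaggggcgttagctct
Gpnmb: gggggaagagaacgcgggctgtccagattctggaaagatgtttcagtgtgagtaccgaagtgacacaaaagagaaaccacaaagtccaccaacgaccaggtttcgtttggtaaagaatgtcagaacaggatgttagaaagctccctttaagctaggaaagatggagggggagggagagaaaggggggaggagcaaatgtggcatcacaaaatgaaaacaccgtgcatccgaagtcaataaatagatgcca
Spp1: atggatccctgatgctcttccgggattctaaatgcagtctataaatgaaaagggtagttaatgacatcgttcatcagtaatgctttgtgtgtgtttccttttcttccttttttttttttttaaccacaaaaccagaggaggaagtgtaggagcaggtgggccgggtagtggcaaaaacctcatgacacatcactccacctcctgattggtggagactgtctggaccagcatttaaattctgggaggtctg

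The motifs searched, on both strands, were TGANTCA (AP-1), GGAATG (TEAD, the partners of YAP and TAZ), TTCNNNGAA (STAT), CCGGAAGT (Ets) and a loose form of the NF-kB motif (GGG and CC with 5 free letters between them). The S100a4 window held 3 matches to the NF-kB letters, 2 of which overlap, that of S100a6 held 1, and those of Lgals3 and Thbs2 held 3 and 2, with an overlapping pair in Lgals3. The Anxa1 window held 2 NF-kB matches and 1 TEAD match, and the windows of Gpnmb and Spp1 held none of the motifs. Of the 46 members, 34 had a promoter entry, and 27 of them (79.4%) held the NF-kB letters, as did 57.3% of the 14885 array genes with an entry. The TEAD letters stood in 8 (23.5%, against 13.3% of those genes), the AP-1 and the STAT letters in 4 each (11.8%, against 7.09% and 7.81%), and the Ets letters in none (0%, against 4.51%). Such a match is only a match of letters, and a gene with several listed starts counts if any window holds the motif.

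S100a6, a calcium-binding protein, measured 6.88, 7.37 and 12.03 in the Hras lines, 6.22, 5.46 and 6.32 in the Erbb2 lines and 6.50, 5.31 and 7.52 in NSC. Hras line 3 lay 4.51 above the next array, a gap that only 1 gene of all those tested exceeded. S100a4, its neighbour on chromosome 3 and a calcium-binding protein linked to cell motility, measured 6.38, 6.85 and 10.43 in the Hras lines, 5.97, 6.16 and 6.20 in the Erbb2 lines and 6.24, 5.93 and 6.77 in NSC. Outside Hras line 3 the levels of S100a4 lay between 5.93 and 6.85, and the gap to the next array was 3.58. S100a5, the only gene between them in the RefSeq order, measured 5.31, 5.72 and 5.90 in the Hras lines, 4.99, 4.71 and 5.00 in the Erbb2 lines and 5.31, 5.17 and 5.35 in NSC. Its level in Hras line 3, 5.90, was the highest of its values but lay only just above the 95th percentile of the receptor rows. Lgals3, galectin-3, which binds sugar chains on cell surface proteins, measured 6.55, 7.38 and 11.02 in the Hras lines, 6.42, 6.27 and 6.07 in the Erbb2 lines and 7.35, 7.18 and 7.37 in NSC. It was high in Hras line 3 alone, with a gap of 3.64, and all 3 Erbb2 lines lay below all 3 NSC cultures.

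Anxa1, a phospholipid-binding protein that damps inflammation, measured 7.12, 5.99 and 11.12 in the Hras lines, 5.00, 4.88 and 6.38 in the Erbb2 lines and 7.21, 5.32 and 4.84 in NSC. Hras line 3 lay 3.91 above the next array, NSC 1, and the groups overlapped. Thbs2, a secreted thrombospondin that restrains blood vessel growth, measured 5.42, 6.78 and 11.10 in the Hras lines, 5.31, 5.26 and 5.92 in the Erbb2 lines and 6.18, 5.98 and 5.53 in NSC. It had a gap of 4.32 to the next array, Hras line 2, the third largest gap of any gene tested. Gpnmb, a glycoprotein of lysosomes and the cell surface, measured 5.88, 6.60 and 10.19 in the Hras lines, 5.21, 5.13 and 6.23 in the Erbb2 lines and 5.34, 5.89 and 6.25 in NSC. Its gap was 3.59, and all other arrays lay between 5.13 and 6.60. All 6 stayed at least 2 above every other array after quantile normalization and after centring. The next members in order of that gap, Spp1 (1.75), Cav1 (1.5), Mgp (1.40) and Met (1.35), were highest in Hras line 3 by less.

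**Figure D3:**
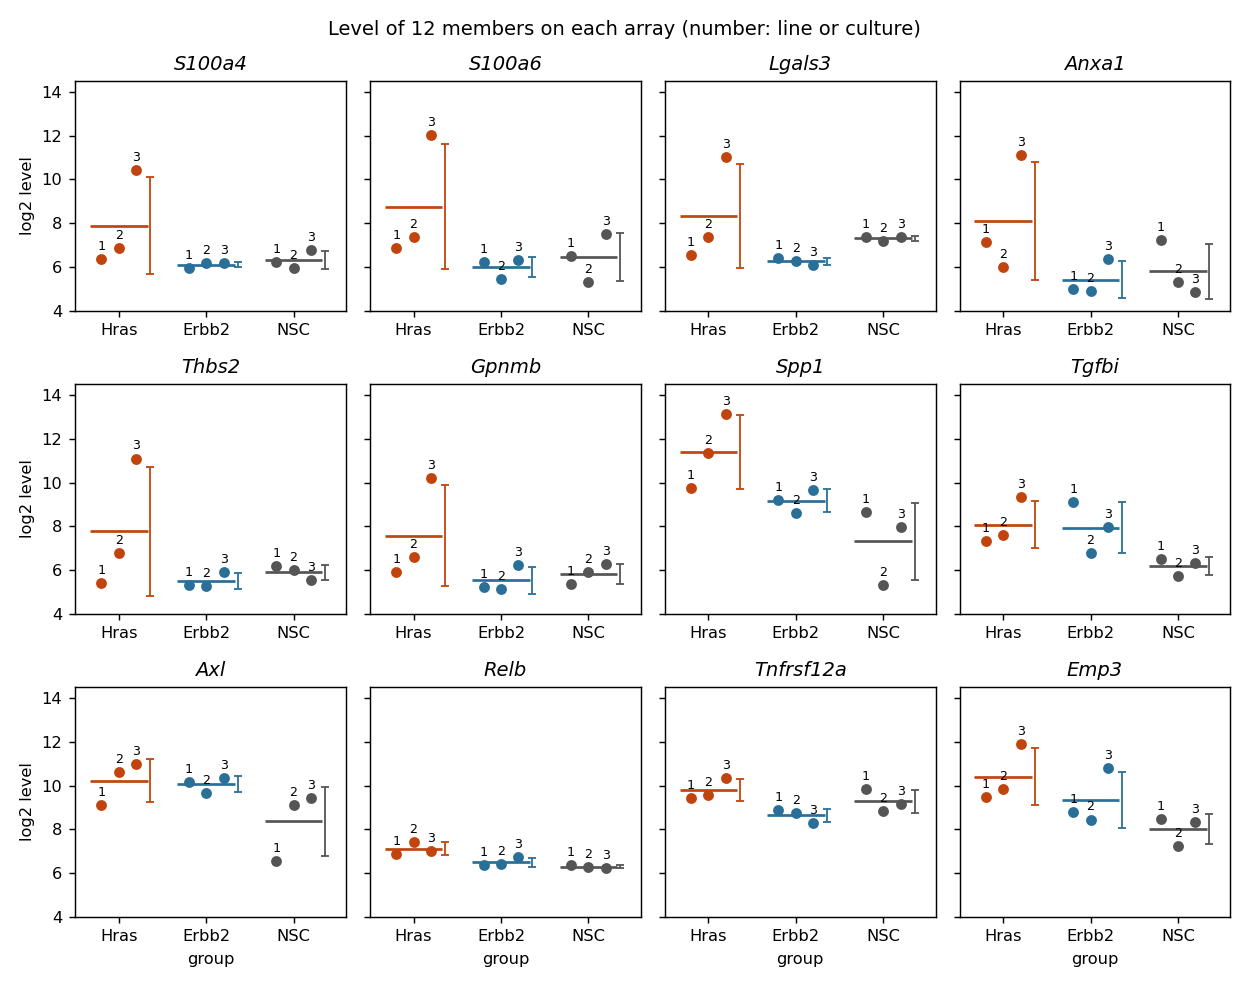
Log2 level of 12 members on each array, by group (Hras, Erbb2, NSC; the number is the line or culture), with the group mean as a line and 1 SD (n = 3) as a bar beside it. In S100a4, S100a6, Lgals3, Anxa1, Thbs2 and Gpnmb a single point, Hras line 3, stands between 10.19 and 12.03, and in Tgfbi all 6 glioma lines lie above NSC.

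In Hras lines against NSC, no member was called (0% of all genes were called higher and 0% lower). The median log2 change was 0.81 over the members and 0.16 over all genes, and 42 of 46 changes were positive, as were 68.5% over all genes. At an unadjusted p under 0.05, 7 members were higher (10.5% of all genes) and 0 lower (1.52%). The Hras lines lay wholly above NSC for 5 members, Spp1, Tgfbi, Sparc, Emp3 and Relb (11.9% of all genes), and wholly below for 1, Bhlhe40 (2.58%). These summaries turned on single arrays, and with 2 arrays in a group more of all genes did not overlap, so each count stands beside the share of all genes in the same setting and both directions. Without Hras line 1 the median was 1.23, with 21 members at an unadjusted p under 0.05 (10.8% of all genes) and 29 whose groups did not overlap (23.4%). Without Hras line 3 the median was 0.425, with 4 members at that p (11.5%). Without NSC 1 the groups did not overlap for 12 members (36.5%), and without NSC 3 for 14 (23.2%).

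In Erbb2 lines against NSC, which share the NSC arrays with the comparison before, no member was called (0.00483% of all genes were called higher and the same share lower). The median change was -0.04 (all genes -0.14), and 18 of 46 changes were positive (36.7% of all genes). Tgfbi, Chi3l1 and Axl, 3 members in all, were higher at an unadjusted p under 0.05 (4.38% of all genes), 0 were lower (4.84%), and the same 3 had all Erbb2 lines above NSC (5.09%). Lgals3, 1 member, had them all below (12.6%). The median was 0.05 without Erbb2 line 2, -0.28 without Erbb2 line 3, -0.08 without NSC 1, -0.17 without NSC 2 and 0.09 without NSC 3, so its sign was not settled. The count at an unadjusted p under 0.05 was 1 without Erbb2 line 1 or 2 (5.36% and 7.96% of all genes in both directions) and 6 without Erbb2 line 3 or NSC 2 (8.69% and 13%). The count of members whose groups did not overlap, 4 (17.7% of all genes in both directions), was 8 without Erbb2 line 1 (25.2%), Erbb2 line 2 (28%) or NSC 1 (26.1%). It was 15 without Erbb2 line 3 (28.8%), 12 without NSC 2 (34.4%) and 7 without NSC 3 (27.6%).

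With the means of both glioma groups set against NSC, no member was called, while 0.256% of all genes were called higher and 0.0967% lower. The median change was 0.45 over the members and 0.01 over all genes, with 34 positive (51.4% of all genes). At an unadjusted p under 0.05, 6 were higher (7.42% of all genes): Spp1, Tgfbi, Emp3, Axl, Relb and Chi3l1. None were lower (2.62%). Only Tgfbi, 1 member, had all 6 glioma lines above all 3 NSC cultures (2.87%), and none had them all below (1.28%). Without Hras line 1, 10 members passed that p (8.86% of all genes in both directions). The median was 0.19 without Hras line 3, 0.30 without Erbb2 line 3 and 0.26 without NSC 1. The groups did not overlap for 2 members without Hras line 1 (4.58% of all genes), Hras line 3 (5.74%), Erbb2 line 1 (4.65%) or Erbb2 line 3 (5.58%). They did not overlap for 3 without Erbb2 line 2 (6.5%) or NSC 3 (8.94%), for 4 without NSC 2 (8.54%) and for 6 without NSC 1 (10.7%).

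Between the Hras lines and the Erbb2 lines no member was called (0% of all genes higher, 0% lower). The median change was 0.81 over the members and 0.29 over all genes, with 39 positive (78.8% of all genes). At an unadjusted p under 0.05, 9 were higher in Hras lines (12% of all genes) and 0 lower (0.72%): Tnfrsf12a, Relb, Mgp, Cd63, Yap1, Emp1, Ahnak, S100a6 and Spp1. The groups did not overlap for 9, all higher in Hras lines (25.6% of all genes, with 2.05% lower): Spp1, Cyr61, Mgp, Tnfrsf12a, Lgals3, S100a4, S100a6, Emp1 and Relb. The scale decided the first count, which was 1 after quantile normalization and 0 after centring, and the second was 3 and 4. The first count was 20 without Hras line 1 (14.2% of all genes in both directions), 3 without Hras line 3 (9.46%), 1 without Erbb2 line 1 or 2 (8.35% and 6.63%), 15 without Erbb2 line 3 (10.4%) and 5 without NSC 2 (13.6%). The second was 26 without Hras line 1 (44.1%) and 24 without Erbb2 line 3 (39.5%), and the median was 0.47 without Hras line 3 and 0.54 without Erbb2 line 2.

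**Figure D4:**
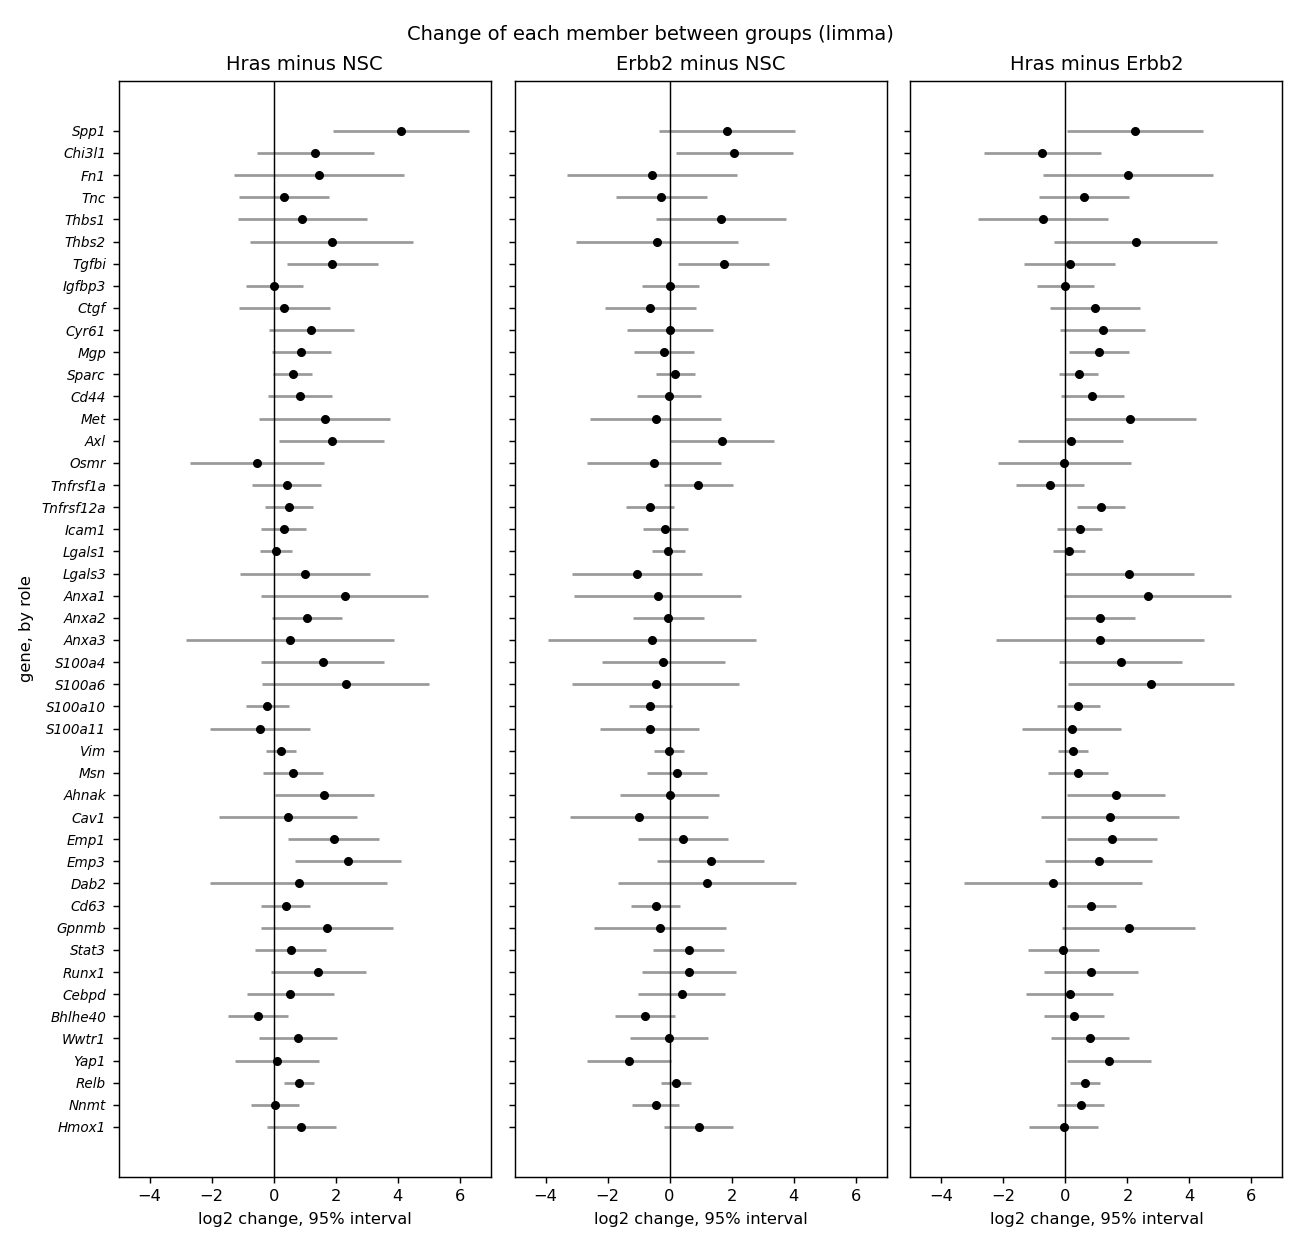
Log2 change of each member (point) with its 95% interval (line) from limma for Hras lines minus NSC, Erbb2 lines minus NSC and Hras lines minus Erbb2 lines. The median over the members is 0.81, -0.04 and 0.81 in the 3 panels, and no member passed an adjusted p under 0.05.

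Among the secreted and matrix proteins, Spp1 and Tgfbi lay above all NSC cultures in all Hras lines. Spp1, osteopontin, a ligand of integrins and CD44, measured 9.74, 11.37 and 13.11 in the Hras lines, 9.22, 8.60 and 9.67 in the Erbb2 lines and 8.66, 5.30 and 7.97 in NSC. The Hras lines lay above all other arrays, Erbb2 lines 1 and 3 lay above all NSC cultures, and Erbb2 line 2 lay just below NSC 1. The change was 4.10 ± 0.97 (SE; limma adjusted p = 0.156) in Hras lines against NSC, 1.86 ± 0.97 (SE; limma adjusted p = 0.566) in Erbb2 lines against NSC and 2.98 ± 0.84 (SE; limma adjusted p = 0.233) for the glioma mean. Hras lines minus Erbb2 lines gave 2.24 ± 0.97 (SE; limma adjusted p = 0.391). The level in NSC 2 lay under the 95th percentile of the receptor rows. Without NSC 2 the change against NSC was 3.09 in Hras lines, 0.85 in Erbb2 lines and 1.97 for the glioma mean. Tgfbi, a matrix protein induced by TGF-beta that binds integrins, measured 7.32, 7.58 and 9.32 in the Hras lines, 9.09, 6.77 and 7.95 in the Erbb2 lines and 6.51, 5.72 and 6.33 in NSC. Its lowest glioma line, Erbb2 line 2, stood just above its highest NSC culture, NSC 1. The change was 1.89 ± 0.65 (SE; limma adjusted p = 0.302) in Hras lines, 1.75 ± 0.65 (SE; limma adjusted p = 0.474) in Erbb2 lines and 1.82 ± 0.56 (SE; limma adjusted p = 0.279) for the glioma mean.

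Chi3l1 did not follow Spp1. It measured 9.29, 6.39 and 5.77 in the Hras lines, 8.82, 8.05 and 6.84 in the Erbb2 lines and 6.11, 5.60 and 5.72 in NSC, so it was high in Hras line 1 and in all Erbb2 lines and lay near NSC in Hras line 3. Its change was 2.09 ± 0.84 (SE; limma adjusted p = 0.506) in Erbb2 lines against NSC and 1.34 ± 0.84 (SE; limma adjusted p = 0.591) in Hras lines against NSC. Mgp, matrix Gla protein, an inhibitor of calcification, measured 5.76, 6.26 and 7.65 in the Hras lines, 5.31, 5.44 and 5.69 in the Erbb2 lines and 5.93, 5.57 and 5.47 in NSC. It was high in Hras line 3, and its other levels lay between 5.31 and 6.26. Hras lines minus Erbb2 lines gave 1.08 ± 0.43 (SE; limma adjusted p = 0.391). For Thbs2, given above, the same difference was 2.27 ± 1.16 (SE; limma adjusted p = 0.407), and 0.60 without Hras line 3.

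The other matrix genes were on broadly similar levels in the groups or differed between lines. Sparc, a collagen-binding matricellular protein, measured 12.80, 13.23 and 13.16 in the Hras lines, 12.40, 12.32 and 13.20 in the Erbb2 lines and 12.42, 12.68 and 12.26 in NSC, with every Hras line above every NSC culture and a change of 0.61 ± 0.28 (SE; limma adjusted p = 0.433). Igfbp3, which binds insulin-like growth factors, ranged over 11.54 to 13.09 in Hras lines, 12.36 to 12.94 in Erbb2 lines and 12.24 to 12.78 in NSC. Fn1, fibronectin, spanned 8.14 to 11.46 in Hras lines, 6.81 to 10.28 in Erbb2 lines and 6.91 to 10.45 in NSC, a wide range within each group. Tnc, tenascin C, ranged over 10.22 to 12.35 in Hras lines, 10.19 to 11.59 in Erbb2 lines and 9.99 to 11.98 in NSC. Thbs1, another thrombospondin, was highest in Erbb2 line 1, at 10.60, and lay between 6.22 and 8.47 on the other arrays. Of the matricellular genes that YAP and TAZ are known to induce, Ctgf ranged over 7.15 to 9.37 in Hras lines, 6.57 to 7.89 in Erbb2 lines and 7.21 to 8.97 in NSC, and Cyr61 over 8.52 to 10.54, 8.23 to 8.49 and 7.42 to 9.6 in the same groups. Cyr61 was above all Erbb2 lines in every Hras line, while NSC 2 lay above Hras lines 1 and 2.

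Of the 7 surface receptors, 5 were highest in Hras line 3. Axl, a receptor tyrosine kinase, measured 9.11, 10.61 and 10.97 in the Hras lines, 10.18, 9.64 and 10.36 in the Erbb2 lines and 6.55, 9.11 and 9.44 in NSC. Every Erbb2 line lay above every NSC culture, whereas Hras line 1 stood at the level of NSC 2 and below NSC 3. Its change was 1.87 ± 0.75 (SE; limma adjusted p = 0.371) in Hras lines against NSC, 1.70 ± 0.75 (SE; limma adjusted p = 0.538) in Erbb2 lines and 1.78 ± 0.65 (SE; limma adjusted p = 0.379) for the glioma mean. Without NSC 1 the Erbb2 change was 0.79 and that of the glioma mean 0.87. Tnfrsf12a, the receptor of the cytokine TWEAK, measured 9.44, 9.56 and 10.35 in the Hras lines, 8.88, 8.72 and 8.31 in the Erbb2 lines and 9.86, 8.82 and 9.15 in NSC. All Hras lines lay above all Erbb2 lines, with a difference of 1.15 ± 0.34 (SE; limma adjusted p = 0.391), and the NSC cultures overlapped both. Tnfrsf1a, a receptor of tumour necrosis factor, measured 9.35, 10.10 and 9.95 in the Hras lines, 9.95, 9.74 and 11.21 in the Erbb2 lines and 8.49, 10.10 and 9.54 in NSC, with its highest level in Erbb2 line 3 and its lowest in NSC 1. Its change was 0.42 ± 0.49 (SE; limma adjusted p = 0.81) in Hras lines and 0.93 ± 0.49 (SE; limma adjusted p = 0.567) in Erbb2 lines against NSC.

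Cd44, the receptor of hyaluronan and osteopontin, measured 8.55, 9.73 and 9.76 in the Hras lines, 8.34, 8.12 and 8.97 in the Erbb2 lines and 7.95, 8.17 and 9.35 in NSC. Hras lines 2 and 3 were its highest arrays, followed by NSC 3, so the groups overlapped. Its change was 0.86 ± 0.46 (SE; limma adjusted p = 0.515) in Hras lines and -0.02 ± 0.46 (SE; limma adjusted p = 0.991) in Erbb2 lines against NSC. Met, the receptor of hepatocyte growth factor, ranged over 5.23 to 8.88 in Hras lines, 4.34 to 6.28 in Erbb2 lines and 4.83 to 6.93 in NSC. Osmr, a receptor of oncostatin M, was highest in NSC 3 (8.22) and Erbb2 line 3 (7.54), and Hras line 2 reached 6.82. Both genes lay under the 75th percentile of the receptor rows, 4.82, on some array. Icam1, an adhesion molecule for leukocytes, ranged over 6.53 to 7.52 in Hras lines, 6.16 to 7.04 in Erbb2 lines and 6.33 to 6.82 in NSC.

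Of the 9 galectins, annexins and S100 proteins, 8 were highest in Hras line 3, and the median difference of all 9 from the NSC mean was 2.66 in that line, against -0.21 and 0.20 in Hras lines 1 and 2. The Erbb2 lines had medians of -0.35, -0.91 and 0.06, and 0 of 9 changes of Erbb2 lines against NSC were positive (36.7% of all genes were). Between groups, S100a6 differed by 2.32 ± 1.19 (SE; limma adjusted p = 0.501) in Hras lines minus NSC and 2.76 ± 1.19 (SE; limma adjusted p = 0.391) in Hras lines minus Erbb2 lines. Without Hras line 3 these values were 0.68 and 1.13. Anxa1 gave 2.66 ± 1.19 (SE; limma adjusted p = 0.391) in Hras lines minus Erbb2 lines, and 1.14 without Hras line 3. S100a10, the partner of annexin A2, measured 11.78, 11.97 and 12.44 in the Hras lines, 12, 11.46 and 11.48 in the Erbb2 lines and 12.43, 11.71 and 12.66 in NSC. Its groups overlapped, and it differed by -0.62 ± 0.31 (SE; limma adjusted p = 0.555) in Erbb2 lines minus NSC. Lgals1, galectin-1, measured 12.23, 12.56 and 12.74 in the Hras lines, 12.35, 12.23 and 12.61 in the Erbb2 lines and 12.62, 12.11 and 12.56 in NSC, all between 12.11 and 12.74, with changes of 0.08 ± 0.23 (SE; limma adjusted p = 0.938) in Hras lines and -0.04 ± 0.23 (SE; limma adjusted p = 0.956) in Erbb2 lines.

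Anxa2, which links membranes to actin, measured 9.74, 11 and 12.01 in the Hras lines, 9.87, 9.65 and 9.90 in the Erbb2 lines and 10.28, 9.35 and 9.89 in NSC, with Hras lines 2 and 3 above all other arrays. Anxa3, another annexin, ranged over 7.22 to 11.39 in Hras lines, 6.91 to 10.16 in Erbb2 lines and 5.69 to 10.97 in NSC, a wider range in NSC than in either glioma group. S100a11 ranged over 9.85 to 12.62, 10.53 to 12.44 and 11.76 to 12.30 in the same groups, with Hras line 1 and Erbb2 line 1 its lowest arrays. S100a11 and S100a10 lie next to each other in the RefSeq order and, unlike S100a4 and S100a6, had other arrays within 1 log2 unit of Hras line 3.

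Among cytoskeleton, membrane and vesicle proteins, all 9 lay above all NSC cultures in Hras line 3. Emp3, a membrane protein of the epithelial membrane protein family, measured 9.49, 9.84 and 11.90 in the Hras lines, 8.77, 8.45 and 10.80 in the Erbb2 lines and 8.49, 7.24 and 8.31 in NSC. Every Hras line lay above every NSC culture, as did Erbb2 lines 1 and 3. Its change was 2.40 ± 0.76 (SE; limma adjusted p = 0.265) in Hras lines against NSC, 1.33 ± 0.76 (SE; limma adjusted p = 0.575) in Erbb2 lines and 1.86 ± 0.66 (SE; limma adjusted p = 0.363) for the glioma mean. Emp1, of the same family, measured 9.83, 10.28 and 11.45 in the Hras lines, 9.13, 8.49 and 9.42 in the Erbb2 lines and 10.00, 8.38 and 7.38 in NSC. Hras lines 2 and 3 were above all NSC cultures and Hras line 1 just under NSC 1, and the change was 1.93 ± 0.65 (SE; limma adjusted p = 0.292) in Hras lines against NSC. Cd63, a tetraspanin of late endosomes and exosomes, measured 10.81, 11.07 and 11.06 in the Hras lines, 9.33, 10.29 and 10.81 in the Erbb2 lines and 10.83, 10.52 and 10.43 in NSC. Hras line 1 and Erbb2 line 3 stood at the same rounded level, and Hras lines minus Erbb2 lines gave 0.84 ± 0.35 (SE; limma adjusted p = 0.391), or 0.43 without Erbb2 line 1. Vim, vimentin, the intermediate filament of neural stem cells and mesenchymal cells alike, measured 12.55, 12.86 and 12.80 in the Hras lines, 12.65, 12.36 and 12.47 in the Erbb2 lines and 12.17, 12.61 and 12.74 in NSC. It was high on every array, with changes of 0.23 ± 0.22 (SE; limma adjusted p = 0.751) in Hras lines and -0.01 ± 0.22 (SE; limma adjusted p = 0.985) in Erbb2 lines.

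The remaining members of that role differed by line. Msn, moesin, which ties actin to the membrane, ranged over 10.71 to 11.92 in Hras lines, 10.40 to 11.53 in Erbb2 lines and 10.36 to 11.45 in NSC. Ahnak, a large scaffold protein, measured 5.74, 7.76 and 8.65 in the Hras lines, 5.27, 5.29 and 6.67 in the Erbb2 lines and 6.19, 5.12 and 5.92 in NSC, high in Hras lines 2 and 3. Hras lines minus Erbb2 lines gave 1.64 ± 0.70 (SE; limma adjusted p = 0.391) for it. Cav1, the main protein of caveolae, measured 6.25, 9.23 and 10.73 in the Hras lines, 7.74, 8.06 and 6.10 in the Erbb2 lines and 8.16, 8.73 and 7.93 in NSC, with Hras line 1 and Erbb2 line 3 the lowest and Hras line 3 the highest. Dab2, an adaptor of endocytosis, was highest in Erbb2 line 3, at 11.87, followed by Hras line 3 at 10.03, and lay between 6.47 and 8.83 elsewhere.

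Of the 7 transcription regulators, 2 were highest in Hras line 3 and 3 in Hras line 2. Relb, a subunit of the non-canonical NF-kB pathway, measured 6.88, 7.44 and 7.02 in the Hras lines, 6.36, 6.39 and 6.72 in the Erbb2 lines and 6.37, 6.27 and 6.23 in NSC. All Hras lines lay above all other arrays, though the range over arrays was small. Its change was 0.82 ± 0.22 (SE; limma adjusted p = 0.193) in Hras lines against NSC, 0.62 ± 0.22 (SE; limma adjusted p = 0.391) against Erbb2 lines and 0.51 ± 0.19 (SE; limma adjusted p = 0.382) for the glioma mean, and Erbb2 lines minus NSC gave 0.20 ± 0.22 (SE; limma adjusted p = 0.712). Yap1, a coactivator of the Hippo pathway, measured 8.40, 9.54 and 9.38 in the Hras lines, 6.66, 7.20 and 9.25 in the Erbb2 lines and 8.96, 9.09 and 8.98 in NSC. Erbb2 lines 1 and 2 were the lowest of the 9 arrays, while Erbb2 line 3 lay above all NSC cultures. The change was -1.30 ± 0.60 (SE; limma adjusted p = 0.545) in Erbb2 lines against NSC and 1.41 ± 0.60 (SE; limma adjusted p = 0.391) in Hras lines minus Erbb2 lines. Wwtr1, its paralogue TAZ, measured 8.99, 10.08 and 10.42 in the Hras lines, 8.79, 8.04 and 10.26 in the Erbb2 lines and 8.69, 9.29 and 9.13 in NSC, and was lowest in Erbb2 line 2.

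Stat3, which carries signals of the IL-6 family, measured 10.56, 11.21 and 9.91 in the Hras lines, 10.72, 10.12 and 11.05 in the Erbb2 lines and 8.90, 10.43 and 10.71 in NSC. Its highest level was in Hras line 2 and its lowest in NSC 1, and the changes were 0.55 ± 0.51 (SE; limma adjusted p = 0.749) in Hras lines and 0.62 ± 0.51 (SE; limma adjusted p = 0.649) in Erbb2 lines. Runx1, a factor best known from blood cells, ranged over 8.15 to 9.37 in Hras lines, 7.38 to 8.53 in Erbb2 lines and 6.14 to 9.03 in NSC. Cebpd, a C/EBP factor of the acute phase, was highest in Erbb2 line 3, at 8.08, and lay between 5.41 and 7.08 elsewhere. Bhlhe40, a repressor of the circadian and hypoxia responses, measured 8.51, 8.14 and 8.62 in the Hras lines, 7.78, 7.44 and 9.25 in the Erbb2 lines and 8.90, 9.23 and 8.70 in NSC. Every Hras line lay below every NSC culture, whereas Erbb2 line 3 lay above all of them, and the changes were -0.52 ± 0.43 (SE; limma adjusted p = 0.711) in Hras lines and -0.79 ± 0.43 (SE; limma adjusted p = 0.572) in Erbb2 lines. Of the enzymes, Hmox1, heme oxygenase, measured 9.41, 10.92 and 10.48 in the Hras lines, 10.14, 10.06 and 10.78 in the Erbb2 lines and 9, 10.35 and 8.78 in NSC. Its groups overlapped through NSC 2, with changes of 0.89 ± 0.49 (SE; limma adjusted p = 0.535) in Hras lines and 0.95 ± 0.49 (SE; limma adjusted p = 0.565) in Erbb2 lines. Nnmt, which methylates nicotinamide, ranged over 6.08 to 6.76, 5.63 to 6.18 and 5.87 to 6.96 in the same order of groups.

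Hras line 3 and Erbb2 line 3, each the highest line of its group for most mesenchymal genes, had the lowest levels of proneural genes in their groups. For a list of 23 proneural glioma genes, the median difference from the NSC mean was 0.81, 0.53 and -0.85 in Hras lines 1, 2 and 3 and 0.51, 0.13 and -0.36 in Erbb2 lines 1, 2 and 3. Hras line 3 was the lowest of the 9 arrays for 11 of them (5.38% of all genes) and Erbb2 line 3 for 6 (16.9%). Sox10, a master factor of the oligodendrocyte lineage, measured 10.59, 8.61 and 6.56 in the Hras lines, 11.56, 10.60 and 6.17 in the Erbb2 lines and 6.71, 6.25 and 6.73 in NSC. It stood within the NSC range or below it in the third line of each oncogene and above NSC in the other 4 lines. Bcan, brevican of the brain matrix, measured 11.18, 10.44 and 7.94 in the Hras lines, 11.38, 11.22 and 11.49 in the Erbb2 lines and 9.47, 11.90 and 11.41 in NSC, and Hras line 3 was its lowest array. Ptprz1, a receptor phosphatase of glial progenitors, measured 11.61, 11.50 and 8.74 in the Hras lines, 11.26, 11.10 and 9.99 in the Erbb2 lines and 10.81, 11.88 and 12.13 in NSC, again lowest in Hras line 3. Pdgfra was the only gene of the proneural and 5 pathway lists that was called in any comparison.

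Pdgfra, the receptor of platelet-derived growth factor on oligodendrocyte progenitors, measured 11.89, 10.10 and 9.6 in the Hras lines, 11.40, 10.68 and 9.06 in the Erbb2 lines and 5.79, 5.64 and 5.16 in NSC. All 6 glioma lines lay above NSC, and it rose by 4.92 ± 0.59 (SE; limma adjusted p = 0.0246) for the glioma mean against NSC. Hras line 3 and Erbb2 line 3 had its lowest levels among the glioma lines of their group. The change was 5.00 ± 0.68 (SE; limma adjusted p = 0.071) in Hras lines and 4.85 ± 0.68 (SE; limma adjusted p = 0.0599) in Erbb2 lines, neither of them called. The other proneural genes given here were not called. Cspg4, the NG2 proteoglycan, differed from NSC by 2.37 ± 0.79 (SE; limma adjusted p = 0.417) in Erbb2 lines. Hras lines minus Erbb2 lines gave 0.56 ± 0.22 (SE; limma adjusted p = 0.391) for Sox2, a factor of neural stem cells, and -1.51 ± 0.83 (SE; limma adjusted p = 0.425) for Bcan.

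**Figure D5:**
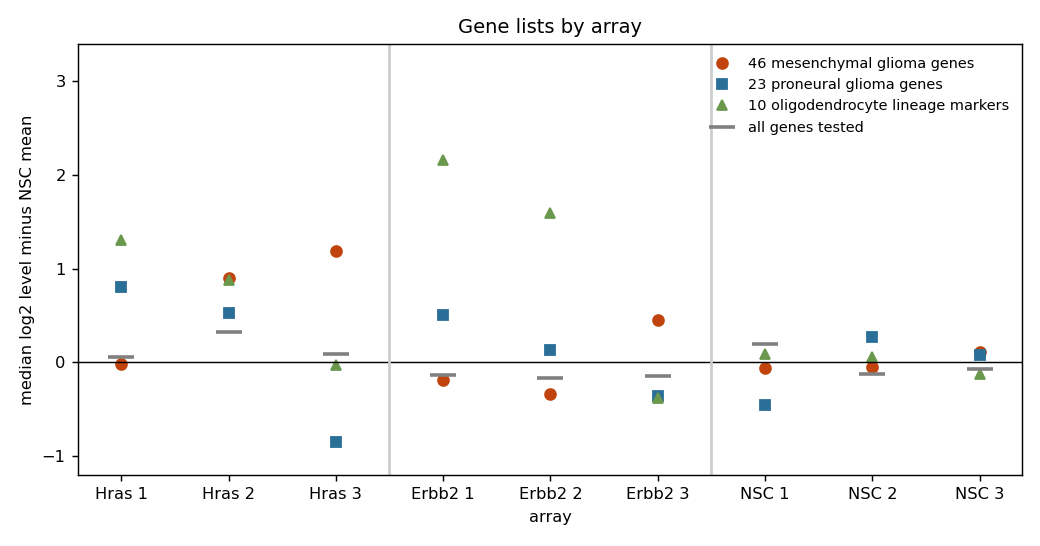
Median difference from the NSC mean (log2 units) of the 46 mesenchymal glioma genes (circles), 23 proneural glioma genes (squares), 10 oligodendrocyte lineage markers (triangles) and all genes tested (grey bars) on each array. In Hras line 3 the circles stand at 1.18 and the squares at -0.85, and in Erbb2 line 3 at 0.45 and -0.36.

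Genes of the pathways around the members were taken from lists written with earlier results of these data known, and none of their members was called in any comparison. In the NF-kB list (19 genes) the median change was 0.74 in Hras lines and 0.40 in Erbb2 lines against NSC. Over all genes it was 0.16 and -0.14, and the medians of the other pathway lists below stand beside the same values. These all-gene medians moved with the scale, as given further below. Tnfaip3, which encodes the inhibitor A20 of NF-kB signalling, measured 7.12, 7.26 and 7.27 in the Hras lines, 6.78, 6.32 and 6.91 in the Erbb2 lines and 6.31, 5.73 and 5.64 in NSC. The 3 groups did not overlap, with a change of 1.32 ± 0.25 (SE; limma adjusted p = 0.0942) in Hras lines against NSC and 0.55 ± 0.25 (SE; limma adjusted p = 0.391) against Erbb2 lines. Its partner Tnip1 differed by 0.86 ± 0.23 (SE; limma adjusted p = 0.194) in Hras lines against NSC. The inhibitors of the NF-kB dimer Nfkbia and Nfkbib differed by 1.12 ± 0.33 (SE; limma adjusted p = 0.343) and 0.91 ± 0.23 (SE; limma adjusted p = 0.257) in Erbb2 lines, and Nfkbie by 1.12 ± 0.33 (SE; limma adjusted p = 0.253) for the glioma mean. Traf2, an adaptor of tumour necrosis factor receptors, gave 0.58 ± 0.26 (SE; limma adjusted p = 0.391) in Hras lines minus Erbb2 lines.

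The YAP and TAZ list (22 genes) had medians of 0.35 in Hras lines and 0.03 in Erbb2 lines against NSC. F3, tissue factor, measured 10.63, 9.69 and 10.97 in the Hras lines, 10.46, 10.48 and 8.56 in the Erbb2 lines and 7.71, 8.43 and 9.26 in NSC, with 5 of 6 glioma lines above all NSC cultures and a change of 1.96 ± 0.60 (SE; limma adjusted p = 0.244) in Hras lines. Stk3, a kinase of the Hippo pathway, differed by 1.20 ± 0.36 (SE; limma adjusted p = 0.24) in the same comparison, and the kinase Nuak2 by -0.93 ± 0.26 (SE; limma adjusted p = 0.309) in Erbb2 lines. Hras lines minus Erbb2 lines gave 1.24 ± 0.50 (SE; limma adjusted p = 0.391) for Tead4, a DNA-binding partner of YAP, and 0.68 ± 0.25 (SE; limma adjusted p = 0.391) for Amotl2, an angiomotin that restrains it. The IL-6 family and STAT3 list (18 genes) had medians of 0.61 and 0.16 in Hras and Erbb2 lines. Il11ra1, a receptor of interleukin 11, lay below all NSC cultures in all 6 lines, at 6.12, 6.48 and 6.99 in the Hras lines, 5.98, 6.03 and 5.96 in the Erbb2 lines and 9.25, 7.69 and 7.18 in NSC, with changes of -1.51 ± 0.48 (SE; limma adjusted p = 0.262) in Hras lines and -2.05 ± 0.48 (SE; limma adjusted p = 0.208) in Erbb2 lines. Jak1, a kinase of these receptors, gave 0.99 ± 0.35 (SE; limma adjusted p = 0.305) in Hras lines, Cebpb, a C/EBP factor, gave 0.77 ± 0.27 (SE; limma adjusted p = 0.365) for the glioma mean, and Cntfr, a receptor of ciliary neurotrophic factor, gave -1.27 ± 0.74 (SE; limma adjusted p = 0.438) in Hras lines minus Erbb2 lines.

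Receptors of osteopontin, hyaluronan and thrombospondin (18 genes) had medians of 0.73 in Hras lines and 0.27 in Erbb2 lines. Itgb8, an integrin chain that activates TGF-beta, measured 8.58, 9.37 and 6.93 in the Hras lines, 8.67, 9.45 and 8.86 in the Erbb2 lines and 10.23, 11.45 and 10.92 in NSC, with all 6 glioma lines below all NSC cultures, and differed by -2.58 ± 0.58 (SE; limma adjusted p = 0.137) in Hras lines and -1.88 ± 0.58 (SE; limma adjusted p = 0.378) in Erbb2 lines. Itga9, an integrin chain that binds osteopontin and tenascin C, measured 9.35, 8.01 and 6.30 in the Hras lines, 8.85, 7.84 and 7.55 in the Erbb2 lines and 5.89, 5.31 and 5.99 in NSC. It lay above NSC in all 6 lines, lowest in Hras line 3, with changes of 2.16 ± 0.67 (SE; limma adjusted p = 0.257) and 2.35 ± 0.67 (SE; limma adjusted p = 0.328) in Hras and Erbb2 lines. Itgb1, the common beta chain, was also above NSC in all 6 lines, and the glioma mean differed by 0.56 ± 0.17 (SE; limma adjusted p = 0.279). Itga3 and Hmmr, a hyaluronan receptor, gave 1.53 ± 0.62 (SE; limma adjusted p = 0.391) and 1.49 ± 0.77 (SE; limma adjusted p = 0.408) in Hras lines minus Erbb2 lines.

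Among 24 other S100 proteins, annexins and galectins the medians were 0.49 in Hras lines and -0.03 in Erbb2 lines. Lgals9, galectin-9, measured 8.37, 10.24 and 10.92 in the Hras lines, 8.59, 8.84 and 11.16 in the Erbb2 lines and 5.89, 6.00 and 6.01 in NSC. All 6 glioma lines lay far above NSC, by 3.88 ± 0.76 (SE; limma adjusted p = 0.106) in Hras lines, 3.56 ± 0.76 (SE; limma adjusted p = 0.166) in Erbb2 lines and 3.72 ± 0.66 (SE; limma adjusted p = 0.0655) for the glioma mean, none of them called. Line 3 was the highest line of each oncogene. Anxa11, an annexin, gave 1.75 ± 0.37 (SE; limma adjusted p = 0.125) in Hras lines, and S100a1, a calcium-binding protein, gave 1.79 ± 0.60 (SE; limma adjusted p = 0.418) in Erbb2 lines. Hras lines minus Erbb2 lines gave 0.88 ± 0.23 (SE; limma adjusted p = 0.391) for Lgals7 and 1.01 ± 0.28 (SE; limma adjusted p = 0.391) for S100a3, which lies near S100a4 on the chromosome, and both lay at or under 7.11 on every array.

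Markers of other cells that a culture could hold were read beside these levels. The summed level of 16 microglia and macrophage markers was 9.74, 10.28 and 10.18 in the Hras lines, 9.48, 9.47 and 9.99 in the Erbb2 lines and 9.86, 9.49 and 9.97 in NSC. Of these 16, the number over the 95th percentile of the receptor rows was 6, 11 and 6 in the Hras lines, 2, 5 and 4 in the Erbb2 lines and 8, 4 and 4 in NSC. Aif1, Ptprc, C1qb and Adgre1 lay under it on all 9 arrays, Trem2 and Cd68 lay over it on all 9, and Cx3cr1 did so on 7. Cd14 and Fcer1g lay over it on 5 arrays each and C1qa and P2ry12 on 4 each, so microglia markers did not all lie under that percentile. Whether those levels were above each gene's own background was not tested. Laptm5, a lysosomal protein of blood cells, stood at 7.5 in Hras line 3 and between 5.08 and 6.00 elsewhere, and Cd68 was highest in NSC 3, at 8.47.

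The summed level of 10 endothelial markers was 9.21, 10.07 and 10.45 in the Hras lines, 8.82, 8.59 and 8.96 in the Erbb2 lines and 9.41, 8.79 and 9.6 in NSC, so Hras line 3 was its highest array. Of these 10, 4, 8 and 5 lay over the percentile in the Hras lines, 3, 2 and 2 in the Erbb2 lines and 5, 3 and 3 in NSC. Flt1, a receptor of vascular growth factors, measured 7.53, 8.88 and 9.90 in the Hras lines, 6.41, 5.87 and 7.36 in the Erbb2 lines and 7.17, 6.09 and 8.56 in NSC. It had by far the largest part in the sum of Hras line 3 and was the only 1 of the 10 markers highest there. Hras line 2 was the highest array for 6 of the 10. The median difference of the 10 from the NSC mean was 0.47 in Hras line 2 and 0.14 in Hras line 3. Cldn5 lay over the percentile on all 9 arrays, at most at 6.67, Vwf on 6 and Tie1 on 5, while Tek and Emcn lay under it on all.

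The summed level of 13 pericyte and fibroblast markers was 12.77, 12.38 and 12.36 in the Hras lines, 12.57, 12.09 and 12.16 in the Erbb2 lines and 11, 10.84 and 10.77 in NSC. Of these 13, 8, 10 and 8 lay over the percentile in the Hras lines, 7, 6 and 7 in the Erbb2 lines and 8, 5 and 5 in NSC. Pdgfra and Prrx1 were high in all glioma lines, and Prrx1 rose by 2.82 ± 0.42 (SE; limma adjusted p = 0.0431) for the glioma mean against NSC. These 2 genes had the highest levels of the list in every glioma line, so the sums there rest mainly on them. Pdgfra also counts among the oligodendrocyte lineage markers. The median change of the 13 for the glioma mean was 0.04, where all genes gave 0.01. Acta2, smooth muscle actin, measured 7.23, 7.68 and 8.29 in the Hras lines, 6.36, 6.74 and 6.24 in the Erbb2 lines and 9.75, 10.08 and 8.27 in NSC, with a change of -2.27 ± 0.40 (SE; limma adjusted p = 0.0655) for the glioma mean. Col1a1, Col1a2, Col3a1 and Acta2 lay over the percentile on all 9 arrays, whereas Dcn and Lum lay under it on all.

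The summed level of 10 oligodendrocyte lineage markers was 14.02, 12.88 and 11.44 in the Hras lines, 14.12, 13.68 and 12.18 in the Erbb2 lines and 12.24, 12.96 and 12.86 in NSC. That of 10 astrocyte markers was 12.90, 12.03 and 11.59 in the Hras lines, 12.43, 12.81 and 12.03 in the Erbb2 lines and 13.08, 13.63 and 12.77 in NSC. For both lists Hras line 3 was the lowest of the 9 arrays. The part of these cell types in the levels of the members was not tested.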

How the data were processed

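The authors' deposited gene table holds log2 values per gene symbol, and their deposited value table holds linear intensity for 35512 probe sets. Of the 46 members, 45 equalled, within 1e-04 on all arrays, the log2 intensity of exactly 1 probe set, and S100a11 equalled none. No source used here gives the background correction, the normalization or the choice of probe set. Of 20715 rows, 25 with a number for a name were left out. The other 20690 were fitted with limma 3.58.1 in R 4.3.3 (group means over all 9 arrays, lmFit and eBayes, 6 residual and 3.12 prior degrees of freedom), with Benjamini-Hochberg adjustment over all of them and calls at an adjusted p under 0.05. Comparisons of both glioma groups with NSC share the NSC arrays. Single lines were compared by level, with no test besides Dixon's criterion in the flagged results below. A summed level is the log2 of the sum of the markers' linear values. The fit was tested on simulated data.

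The members and all lists were chosen with earlier results of these data known. Full values are given for the 5 members with the smallest p and the 3 with the largest change in each comparison, for the member of highest mean level in each role, and for a few more that the text describes. Pathway genes named are those called or with the 2 smallest p in a comparison. A gene that this rule takes is not reported here. Alternatives changed the scale, the filter on dim genes, the prior, the weights, the samples in the fit, a replicate block and each array in turn. The number of arrays limits the precision. Promoters come from RefSeq (GRCm38.p6).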

Additional observations from a re-analysis of the deposited data

Results flagged for a closer look

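Over the 6 glioma lines, 6 members had a value far from the others by Dixon's criterion, in which the gap to the nearest line is set against the whole range, in each case the high value of Hras line 3. The log2 level there was 11.10 for Thbs2, 11.02 for Lgals3, 11.12 for Anxa1, 10.43 for S100a4, 12.03 for S100a6 and 10.19 for Gpnmb. They are the same 6 members whose level in that line exceeded every other array by at least 2 log2 units. The criterion uses much the same gap, so it is no separate support for that choice. Chance alone sets off this criterion in about 1 of 20 sets of 6 values from 1 normal population. The 6 lines come from both oncogene groups, so that rate need not hold here. Over all genes tested, 4.28% had such a high value among the 6 lines and 1.45% such a low value, and in 0.913% the high value was that of Hras line 3.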

How the results depend on the processing

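No member was called under any of 18 alternatives. The smallest adjusted p over them was 0.0763 for Hras lines minus NSC (without NSC 1), 0.097 for Erbb2 lines minus NSC (without Erbb2 line 3), 0.125 for the glioma mean minus NSC (array weights) and 0.189 for Hras lines minus Erbb2 lines (array weights). The 25 changes given for the rule-named members kept their direction and stayed uncalled in all 445 refits. The scale moved the median of all genes: for Hras lines minus NSC from 0.16 as deposited to -0.03 after quantile normalization and -0.23 after centring, where the members' median was 0.55 and 0.42. For Hras lines minus Erbb2 lines all genes gave -0.01 and -0.13, and the members 0.61 and 0.39. For the glioma mean they gave -0.02 and -0.17, and the members 0.39 and 0.27. Erbb2 lines minus NSC gave -0.03 and -0.11, and the members -0.08 and -0.01.

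Counts of members at an unadjusted p under 0.05 moved with the setting. For Hras lines minus NSC the count was 7 in the fit reported and 11 with array weights. For Hras lines minus Erbb2 lines it was 9 in the fit reported, 1 after quantile normalization, 0 after centring, 19 with array weights, 14 with an intensity trend and 5 with only the groups compared. Members whose groups did not overlap numbered 3 after quantile normalization and 4 after centring in that comparison, in place of 9. They numbered 7 after centring for Erbb2 lines minus NSC, in place of 4, and 2 after quantile normalization and 3 after centring for the glioma mean, in place of 1. The cause was not tested. Only the groups compared gives the reported fit for the glioma mean and was not run there.

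With each array left out in turn, the members' median ranged from 0.425 to 1.233 for Hras lines minus NSC, from -0.277 to 0.089 for Erbb2 lines minus NSC, from 0.188 to 0.614 for the glioma mean and from 0.472 to 1.172 for Hras lines minus Erbb2 lines. In that order the count at an unadjusted p under 0.05 ranged from 4 to 21, 1 to 6, 5 to 10 and 1 to 20, and the count whose groups did not overlap from 6 to 29, 4 to 15, 1 to 6 and 9 to 26. A group of 2 arrays also raised the share of all genes whose groups did not overlap.

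The labels state no pairing of arrays by the numbers in their titles. The correlation of deviations from the group means was computed between arrays with the same number. The correlation was 0.339, -0.344 and 0.441 between Hras and Erbb2 lines, 0.117, 0.251 and -0.095 between Hras lines and NSC, and -0.224, -0.176 and 0.08 between Erbb2 lines and NSC. Hras and Erbb2 lines with unlike numbers gave -0.561 to 0.426. For unlike numbers, Hras lines and NSC gave -0.511 to 0.407, and Erbb2 lines and NSC gave -0.354 to 0.415. With 3 arrays a group, such values cannot decide whether the arrays were paired. With the number as a replicate block no member was called. The count at an unadjusted p under 0.05 under the block was 13 for Hras lines minus NSC, 5 for Erbb2 lines minus NSC and 15 for Hras lines minus Erbb2 lines, where the fit without it gave 7, 3 and 9.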
